A study of Homo sapiens with 6 samples.

Results

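The comparison described here set 2 clones of H1299 cells stably transfected with Lin-28B against the 1 line labelled as their control. H1299 is a human cell line long established from a non-small cell lung cancer. It is labelled lung adenocarcinoma and is known to lack the tumour suppressor p53. The arrays were chosen by their titles: H1299 Lin-28B clone #1, H1299 Lin-28B clone #2 and H1299 control for Lin-28B, which make 3 of the 6 arrays of the study. The other 3 held 2 clones transfected with Ago2 and 1 control for them, and they entered only the normalization, the estimate of the spread and the comparisons that name them. Each Lin-28B array came from RNA of 1 clone or 1 line growing exponentially. The labels do not state the vector, the promoter, or whether the control is a clone, a pool or a line with an empty vector. Each clone also descends from 1 transfected cell, so a difference that belongs to a clone and a difference that belongs to Lin-28B cannot be told apart within 1 clone.

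LIN28B binds the precursors of the let-7 family of microRNAs and keeps them from being processed to mature let-7. Mature let-7 pairs through its seed with sites in messenger RNAs and lowers their stability and translation, and many let-7 targets are growth and fetal genes. High LIN28B with low let-7 is known from many tumours and from embryonic cells. The arrays measured messenger RNA, so let-7 itself was not measured. Mature forms are printed to show the seed that family members share, and precursor loops because LIN28 proteins bind there. Both come from RefSeq, build GRCh38.p14. The capitals in the mature forms mark the seed, bases 2 to 8, and the 4 forms were chosen to show where family members differ outside it:
hsa-let-7a-5p: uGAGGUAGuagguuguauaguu
hsa-let-7d-5p: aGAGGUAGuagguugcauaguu
hsa-let-7e-5p: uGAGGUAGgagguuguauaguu
hsa-miR-98-5p: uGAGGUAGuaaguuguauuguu
All 9 mature names of the let-7 family in the table, miR-98 included, share this 1 seed. The zinc knuckles of LIN28 proteins are known to bind the letters GGAG in the loop between the arms of the precursor. A search for GGAG on the RNA strand of the loops found it in 8 of the 11 let-7 family precursors with both arms annotated, and in 60 of 739 precursors with both arms over all human microRNAs (8.12%). The loops of let-7a-1, with the match in capitals, and of let-7b, without one, are given as examples of each:
let-7a-1 loop, chr9:94175984-94176012, plus strand: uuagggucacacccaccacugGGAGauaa
let-7b loop, chr22:46113713-46113744, plus strand: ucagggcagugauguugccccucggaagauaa
A match is a description of the letters only.

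The deposited table names its 48803 probes by identifier alone and pairs them with no genes, so the results are given per probe. The levels of LIN28B, of let-7 targets and of lung and epithelial markers, which could check the labels, were not analysed here. The 3 Lin-28B arrays had median intensities of 64.8 in the control, 64.2 in clone 1 and 62.5 in clone 2. Their 90th percentiles lay at 519 in the control, 552 in clone 1 and 543 in clone 2, so most probes sat close to the background level. The control array had both the lowest minimum of the 6 arrays, 26.1, and the highest maximum, 45656. Its part in the results below was not tested. In all, 28035 probes (57.45%) were brighter than the median probe of the same array on 2 or more of the 6 arrays and were kept. Differences are given on the quantile-normalized log2(intensity + 32) scale, which understates the change of dim probes, and intensities are as deposited.

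The main comparison asked which transcripts differed between the Lin-28B clones and their control. Both clones differed from the control array far more than they differed from each other, and the 2 differences share that control array. Clone 1 lay at least 2-fold from the control at 1301 probes, 614 higher and 687 lower. Clone 2 did so at 1031 probes, 519 higher and 512 lower. The 2 clones were at least 2-fold apart at 65 probes (0.232% of those kept). The median size of the log2 difference was 0.169 between clone 1 and the control, 0.161 between clone 2 and the control, and 0.108 between the clones. At the 99th percentile of size these differences were 1.52, 1.38 and 0.681.

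By a rule of size without a test, 716 probes (2.55% of those kept) differed from the control at least 2-fold in the same direction in both clones. Of these, 340 (1.21%) were higher and 376 (1.34%) were lower in the clones. Only 1 probe was at least 2-fold away in both clones with opposite signs. At a 3-fold limit the count in both clones was 36 higher and 56 lower. At a 4-fold limit it was 9 higher and 14 lower, and at an 8-fold limit 0 higher and 2 lower. The rule has a sharp edge in a dense part of the distribution: the probe just inside it had a smaller clone difference of 1.0003 and the probe just outside 0.9986, and 301 probes lay between 0.9 and 1. Accordingly, of the 585 probes that reached 2-fold in clone 1 alone, 581 had the same sign in clone 2, with a median of 0.801 there. Of the 315 that reached it in clone 2 alone, 307 had the same sign in clone 1, with a median of 0.803. Both clones share the control array, so these shared signs are no independent replication.

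In limma with Benjamini-Hochberg adjustment over the kept probes, 463 probes (1.65%) passed an adjusted p of 0.05, 231 (0.824%) rising and 232 (0.828%) falling in the clones. The risen probes had a median log2 change of 1.19, and their median intensity was 369 in the control, 1138 in clone 1 and 1079 in clone 2. The fallen probes had a median log2 change of -1.21, and their median intensity was 633 in the control, 234 in clone 1 and 244 in clone 2. No called probe had a mean difference smaller than 0.768. Of the 716 probes of the size rule, 338 were called and 378 were not. The median standard error was 0.136 for the former and 0.256 for the latter. The fit had 2 residual degrees of freedom, 1 from each pair of clones, and the single control was taken to have the clones' spread. The smallest adjusted p was 0.0322, and 1 probe had one below 0.045, so the count sits at the edge of the threshold. Cyclic loess normalization left 1 call, robust moderation 1, and adding 100 in place of 32 left 0. It was also 0 without clone 1 and 0 without clone 2, and it rose to 2497 without Ago2 clone 1 and 2380 without Ago2 clone 2. At an unadjusted p of 0.05, 5479 probes (19.5%) passed in limma, 2786 higher and 2693 lower.

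**Figure D1:**
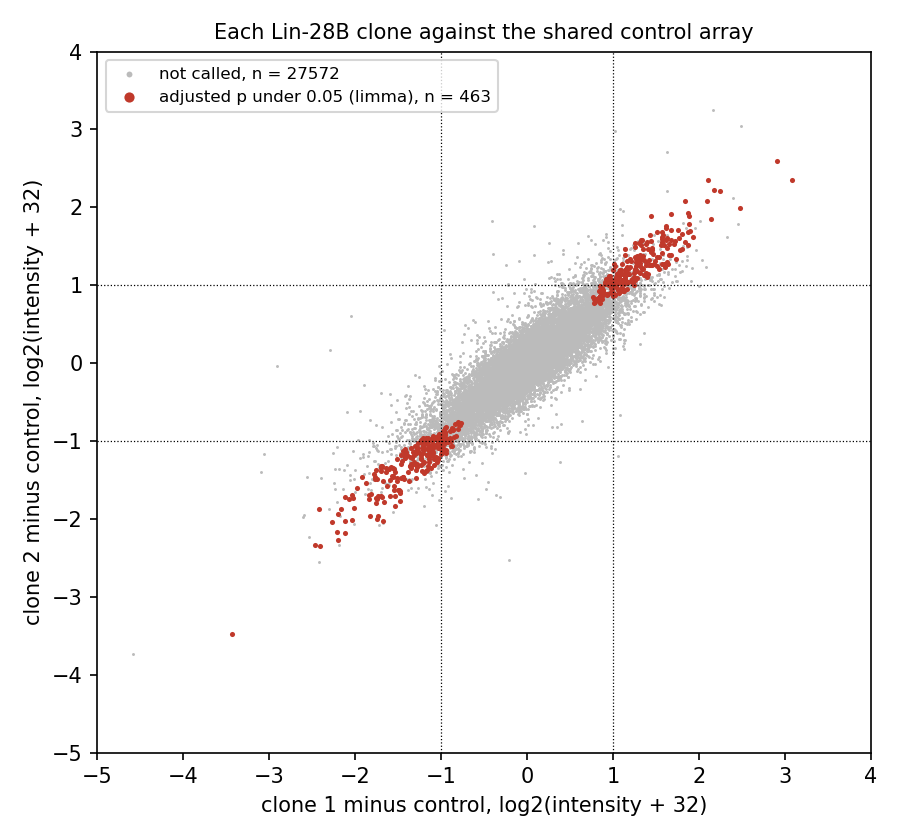
Each point is 1 of the 28035 kept probes, with the log2 difference of clone 1 from the control on the horizontal axis and that of clone 2 on the vertical axis; dotted lines mark 2-fold. The 463 probes called by limma lie along the diagonal beyond a mean difference of 0.768, while none of the 65 probes at which the clones are at least 2-fold apart was called.

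Most probes of either direction were bright. The kept probes were split into quartiles by mean normalized signal over all 6 arrays. In the brightest quartile, with a median intensity of 855, 304 probes were at least 2-fold higher and 222 at least 2-fold lower in both clones. In quartile 3, with a median of 152, 36 were higher and 148 lower. Quartile 2 held 0 higher and 6 lower, and the dimmest held 0 of either. The low counts in the dim quartiles follow in part from the scale and the split, and how far they do was not tested. The offset shrinks the changes of dim probes, and a 2-fold rise in both clones lifts a probe's mean towards a brighter quartile. Part of the contrast between directions also follows from the split. A probe that is high on the control array alone has a lower mean over 6 arrays than a probe that is low there alone. Within a quartile, the SD over probes of the clone mean minus the control grew from 0.119 in the dimmest quartile to 0.629 in the brightest. The SD between the clones grew from 0.11 to 0.296. The offset shrinks both most in the dim quartiles, so this growth cannot be read apart from the scale. The balance of directions moved with the scaling. After a shift of each array to one common median, 66.9% of 724 probes of the size rule were higher, and 70.4% of 470 called probes, against 47.5% and 49.9% here. Without normalization the shares were 62.1% and 62.0%. The brightest quartile carried this, with 450 higher and 106 lower after the median shift, and the median change of its probes was 0.186 in place of 0.049.

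**Figure D2:**
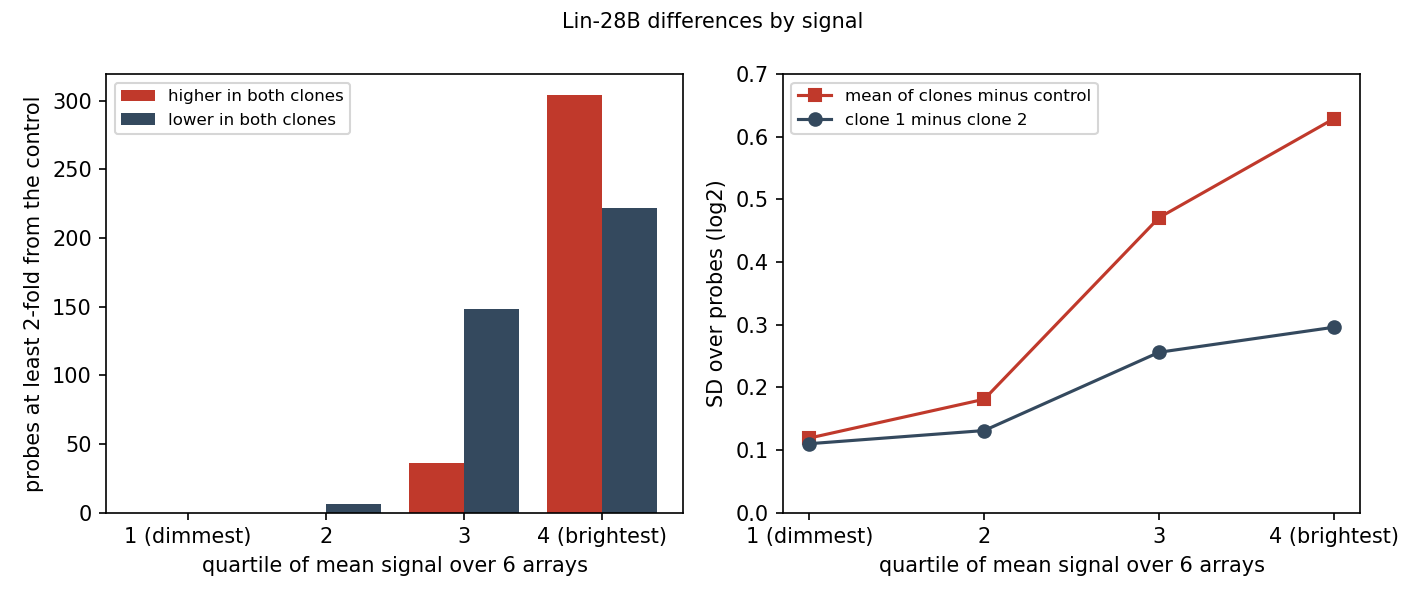
The left panel counts the probes at least 2-fold higher or lower than the control in both Lin-28B clones, by quartile of mean signal; the right panel shows, over the probes of a quartile, the SD of the log2 difference of the clones from the control and from each other. Of the higher probes, 304 lie in quartile 4 and 36 in quartile 3, and the clone-control SD exceeds the clone-clone SD in each of the 4 quartiles.

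By a rule of percentiles within each array, few of the 28035 kept probes switched between a low and a high position. The rule misses probes whose clones lie at background but just above the array median. ILMN_1663640, with clone 1 at percentile 55.7, and ILMN_1868866, with clone 2 at 53.8, are examples. At 8 probes the control lay at or below its array's median while both clones lay above their 75th percentile. The median intensity of these 8 was 60.7 in the control, 134 in clone 1 and 146 in clone 2. At 6 probes the control lay above the 75th percentile and both clones at or below the median, with median intensities of 184, 59.5 and 56. The filter asks for 2 arrays above the median, so it keeps every probe of the first kind. It drops a probe of the second kind that is above the median on the control array alone, so the 2 counts cannot be compared. Of these 14 probes limma called 1, where it called 1.65% of all kept probes. The Ago2 control array was above its own 75th percentile at 7 of the 8 and at or below its median at 3 of the 6. The same shares over all kept probes were not computed, so nothing about either control is read from these counts.

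The largest called changes are shown with the value on every array, since the rise or fall rests on 1 control. ILMN_1767658 measured 279 in the control, 2465 in clone 1 and 1892 in clone 2. On the Ago2 arrays it measured 1871 in the control, 1194 in clone 1 and 1789 in clone 2. The Lin-28B control was thus low and the other 5 arrays were all high, overlapping one another. In limma the rise in the Lin-28B clones was 2.75 ± 0.27 on the log2 scale (SE, adjusted p = 0.0488), from 2.91 in clone 1 and 2.60 in clone 2. ILMN_2383305 measured 251 in the control, 2491 in clone 1 and 1418 in clone 2. It measured 3094 in the Ago2 control, 963 in Ago2 clone 1 and 1154 in Ago2 clone 2. Again the Lin-28B control alone was low, and the Ago2 control was the highest array. The rise was 2.71 ± 0.32 (SE, adjusted p = 0.0488 in limma).

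ILMN_1663640 was the probe with the strongest test result. It measured 939 in the control, 66.6 in clone 1 and 61.7 in clone 2, with both clones at the background level of their arrays. The Ago2 control lay there too, at 65.9, while the Ago2 clones measured 305 and 294. The fall was -3.45 ± 0.10 on the log2 scale (SE, adjusted p = 0.0322 in limma), and because the clones are at background its size moved from -2.78 with an offset of 100 to -3.99 with none. ILMN_1868866 measured 447 in the control, 61.4 in clone 1 and 64.2 in clone 2. The 3 Ago2 arrays measured 59.6, 52.98 and 68.3, so that this probe stood above background on the Lin-28B control array alone. Its fall was -2.38 ± 0.13 (SE, adjusted p = 0.0488 in limma), and -1.79 with an offset of 100. Without either Lin-28B clone the adjusted p of these 4 probes was 0.203 or 0.253.

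**Figure D3:**
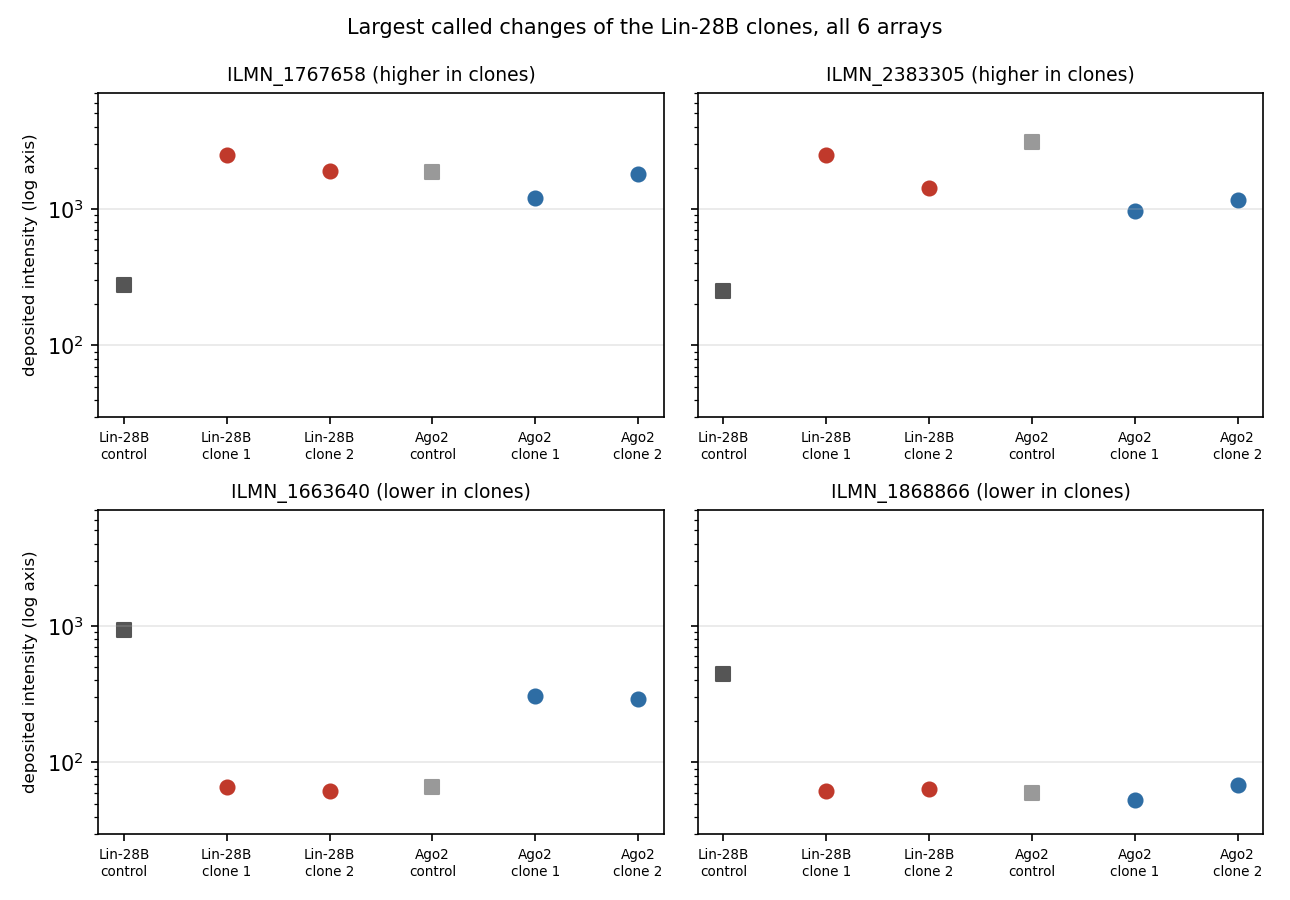
Deposited intensity on a log axis for the 4 probes with the largest called changes, on all 6 arrays; squares are control arrays and circles are clones. In each panel the Lin-28B control lies apart from the other 5 arrays, low at 279 and 251 in the upper panels and high at 939 and 447 in the lower ones.

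The wider set of extreme called probes had the same layout. Probes of the size rule that limma did not call reached mean log2 differences of -4.16 and 2.77, and they are not in this set. Among the 12 called probes with the largest rises, the fold change ran from 3.57 to 6.75, and the control ranged from 71.8 to 1032 with a median of 275. The clones ranged from 405 to 4767. The lowest control value, at ILMN_1710136, was near background, so the size of that rise depends on the offset. Among the 12 with the largest falls, the log2 change ran from -2.02 to -3.45. At ILMN_1663640 and ILMN_1868866 among them the clones were at background, so that the size of the change depends on the offset. Near background were also the clones of ILMN_1651358, at 96.8 and 90.1, and clone 1 of ILMN_1776602, at 86.3. Over the 12 falls the control ranged from 447 to 4095 with a median of 879, and the clones from 61.4 to 1213. The Lin-28B control was the lowest of the 6 normalized arrays at 12 of the 12 rises and the highest at 12 of the 12 falls, which the choice of probes far from it fixes in part.

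The Lin-28B clones were also set against the Ago2 control, a different line. These 2 comparisons share the Lin-28B clones, so their values are only set side by side. Against the Ago2 control limma called 0 probes (0%), with a smallest adjusted p of 0.158 and 3271 probes (11.7%) at an unadjusted p of 0.05. Moderation with an intensity trend gave 43 calls. By the size rule 255 probes (0.91%) differed, 127 (0.453%) higher and 128 (0.457%) lower. The probes named here were chosen for their distance from the Lin-28B control, so a smaller distance from another array is favoured by that choice and is given as a description. For ILMN_1767658 and ILMN_2383305 the differences from the Ago2 control were 0.22 and -0.69, against 2.75 and 2.71 from their own. For ILMN_1663640 and ILMN_1868866 they were 0.03 and 0.11, against -3.45 and -2.38. Of the 12 largest rises, 11 lay within 2-fold of the Ago2 control, with a median difference of -0.02. Of the 12 largest falls, 11 did, with a median of 0.11. Only 0.91% of all kept probes met the size rule against the Ago2 control. Lying within 2-fold of that array is thus the common case, and the 2 counts of 11 are a description only.

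Probes displaced from both control arrays were also counted. The Lin-28B clones lay at least 2-fold from both controls, in the same direction in both clones, at 6 probes (0.0214% of those kept), 2 higher and 4 lower. This rule was added after the data had been seen. It joins 2 rules that 716 (2.55%) and 255 (0.91%) of the kept probes met, so a low count follows in part from these small sets. Of the 6, limma called 4 against the Lin-28B control, 1 of those higher and 3 of those lower, and the adjusted p ran from 0.0488 to 0.179. The first of the higher probes measured 157 and 203 in the Lin-28B and Ago2 controls and 554 and 1195 in the Lin-28B clones. The Ago2 clones were as high, at 1388 and 1368, and the difference of the Lin-28B clones from their control, 2.17 ± 0.45 (SE), had an adjusted p of 0.0941 in limma. The second measured 161 and 112 in the controls and 352 and 429 in the Lin-28B clones, with 243 and 246 in the Ago2 clones, and rose by 1.14 ± 0.14 (SE, adjusted p = 0.0488 in limma).

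Of the 4 lower probes, the one with the widest gap measured 2955 and 2162 in the 2 controls and 748 and 916 in the Lin-28B clones. The Ago2 clones lay between, at 1538 and 1310. Its fall against the Lin-28B control was -2.02 ± 0.18 (SE, adjusted p = 0.0488 in limma). A second measured 1972 and 2607 in the controls and 1055 and 1034 in the Lin-28B clones, while the Ago2 clones, at 2010 and 1756, lay near the controls. It fell by 1.12 on the log2 scale, with an adjusted p of 0.0488 in limma. Its change was -0.896 without normalization and -0.874 with a common median only. Another measured 1002 and 1133 in the controls, 439 and 527 in the Lin-28B clones and 707 and 706 in the Ago2 clones, a fall of -1.15 ± 0.14 (SE, adjusted p = 0.0488 in limma). The last measured 356 and 476 in the controls, and its clones were spread widely, at 156 and 60.6 in the Lin-28B clones and 55.6 and 98.7 in the Ago2 clones. That probe was not called (-1.56 ± 0.48, SE, adjusted p = 0.179 in limma). The difference between the effects of the 2 transfections had an adjusted p above 0.05 in limma at each of the 6, the lowest being 0.0599, so none of them was shown to be particular to Lin-28B. Over all kept probes that difference passed for 1067 (3.81%). Without clone 1 the count was 32 and without clone 2 it was 18, since 1 clone then had to meet the rule. Adding 100 in place of 32 left 3, and adding nothing gave 12. Without normalization the count was 4, and with a common median only it was 5. The 4 of the 6 probes called in the main fit were no longer called in limma under cyclic loess, robust moderation or an offset of 100.

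**Figure D4:**
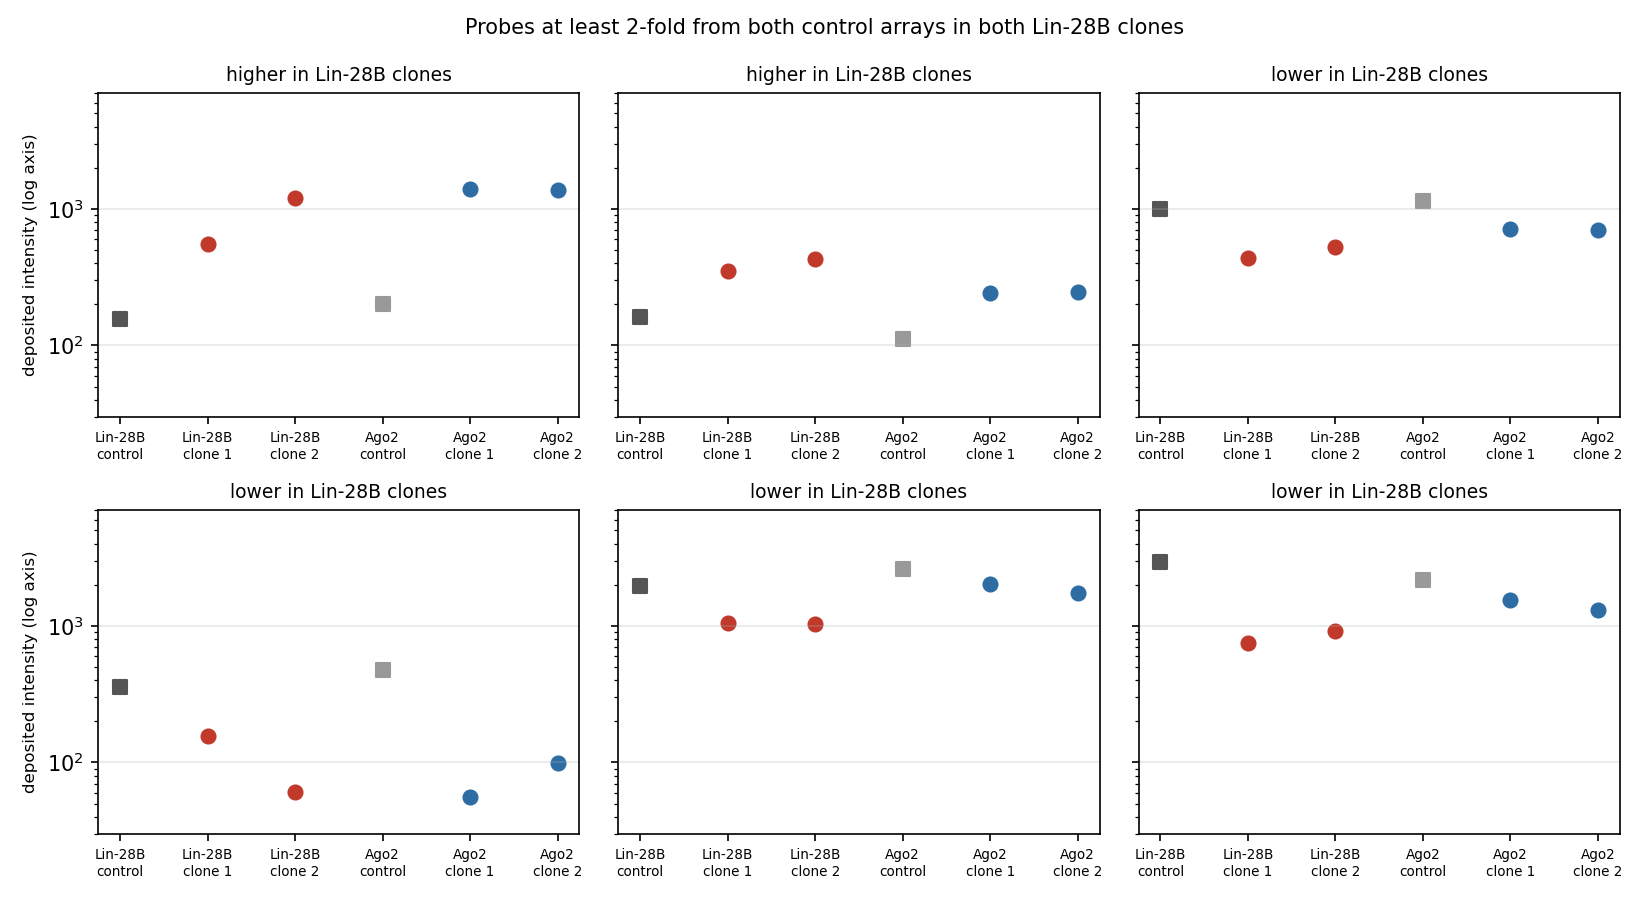
Deposited intensity on a log axis for the 6 probes at least 2-fold from both control arrays in both Lin-28B clones after normalization. Some of the gaps are smaller than 2-fold on the deposited scale shown. Squares are control arrays and circles are clones. The 6 panels follow the order from largest rise to largest fall by the smaller clone difference. In each panel both Lin-28B clones lie on 1 side of both controls, and in 1 of the 2 higher and 1 of the 4 lower panels both Ago2 clones are at least 2-fold from both controls on that side too.

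The 2 Lin-28B clones were compared with each other as a description of clonal spread, on 1 array each and with no test. Of the 65 probes at least 2-fold apart, 17 were higher in clone 1 and 48 in clone 2. The widest gap towards clone 1 was 2.32 on the log2 scale, at a probe that measured 498 in clone 1, 71.4 in clone 2 and 546 in the control. The widest gap towards clone 2 was -2.86 for clone 1 minus clone 2, at a probe that measured 119 in clone 1, 1085 in clone 2 and 1007 in the control. In both cases the control lay close to the higher clone. Over the 65 probes the control was nearer clone 1 at 34 and nearer clone 2 at 31. It lay between the clones at 28, above both at 26 and below both at 11. Against the control 9 of the 65 met the size rule. None was called by limma, in which a gap between the clones enters as spread, so that a call at these probes was hardly possible.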

How the data were processed

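Messenger RNA of 6 H1299 lines was measured on Illumina human HT-12 BeadChips, from Trizol-extracted RNA made into biotinylated cRNA (Ambion MessageAmp), as the labels' protocols say. The authors deposited linear probe intensities. How they were scanned, background-corrected or scaled is not given in the sources used here. Every deposited column was used, and each was tied to its sample by accession and grouped by title.

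Values were floored at 1, offset by 32, converted to log2 and quantile normalized over the 6 arrays. A probe was kept if it was above the array median on 2 or more arrays. One linear model with 4 groups was fitted in limma (version 3.58.1, R version 4.3.3) and moderated by eBayes (2 residual and 2.54 prior degrees of freedom, prior SD 0.105), with Benjamini-Hochberg adjustment at 0.05. The script was tested on simulated data with known changes. All simulated arrays were given the fitted spread, so that test cannot bear on variation of the control itself. With 2 clones and 1 control an exact permutation test has only 3 arrangements and cannot go below p = 0.333, so none was run. No source says that clones were grown or hybridized separately. The p-values rest on how far apart the 2 clones of each transfection lay. Neither control array adds to that estimate, so the variation of the Lin-28B control is not in it. The number of arrays limits the precision.

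The probes named are those past the threshold with the largest smaller difference of both clones, 2 in each direction because no gene symbols were at hand; 12 in each direction are summarised. Planned gene lists could not be applied without symbols (0 of 48803 probes had one). The comparison, lists and rules were chosen with earlier results of these data known. Alternatives covered the offset, normalization, filter, moderation, arrays fitted and each clone left out.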

Additional observations from a re-analysis of the deposited data

Results flagged for a closer look

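The Lin-28B effect and the Ago2 effect, each against its own control, differed in limma at 1067 of the kept probes (3.81%), and the 4 named probes are among them. They were chosen for their large Lin-28B effect, which is 1 term of this difference, so their passing follows in part from the choice. Each effect uses 1 control array, and the parts that the controls and the clones have in these values were not tested. The Lin-28B effect minus the Ago2 effect was 3.06 ± 0.38 on the log2 scale for ILMN_1767658 (SE, adjusted p = 0.0442 in limma), from effects of 2.75 and -0.30. It was 4.20 ± 0.46 for ILMN_2383305 (SE, adjusted p = 0.0409 in limma), from 2.71 and -1.48. For ILMN_1663640 it was -5.24 ± 0.14 (SE, adjusted p = 0.0236 in limma), from -3.45 and 1.78, with 2 of the 4 groups at background. For ILMN_1868866 it was -2.46 ± 0.18 (SE, adjusted p = 0.0405 in limma), from -2.38 and 0.09, with all arrays but the Lin-28B control at background.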

How the results depend on the processing

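The called count of 463 stayed within 1.5 times under 3 of 14 alternatives: 470 with a common median only, 476 without normalization and 470 without a filter. It was 813 with no offset, 0 with an offset of 100, 1 with cyclic loess, 1 with robust moderation, 721 with an intensity trend (38.3% higher), 795 with the stricter filter, and 1962 with the Lin-28B arrays fitted alone. Fewer probes were tested in the last 2 of these, and the other causes were not tested. Leaving out 1 clone gave 0 to 2497. The size-rule count of 716 stayed within 1.5 times under 10 of 12 alternatives, was 457 with an offset of 100, and ran from 710 to 1296 with 1 clone left out. Of its 611 probes under cyclic loess, 40.9% were higher. Against the Ago2 control, limma's 0 calls became 43 with the intensity trend (18.6% higher), and the 255 probes by size became 149 with an offset of 100 (38.9% higher) and 255 to 559 with 1 clone left out. With a common median only, 61.6% of 284 such probes were higher. The 6 probes beyond both controls became 3 with an offset of 100, 12 with none and 7 to 32 with 1 clone left out. The 65 probes that separated the clones became 36 with an offset of 100. The 4 named probes kept their direction under every alternative that tested them, and differences of their size left little room for another sign. Under cyclic loess and under robust moderation, only ILMN_1663640 among them stayed called in limma. With an offset of 100, none of the 4 did. ILMN_1868866 was removed by 1 of the 14, the stricter filter. No paired analysis was possible because the control has 1 array and its title does not tie it to either clone.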
